A study of Mus musculus with 3 samples.

Results

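The cathepsins and lysosomal hydrolases are 38 genes for enzymes and activator proteins of the lysosomal lumen, chosen by name from a fixed list with no measured value in its rule, although earlier results of these data were known, among the 20660 named genes on the arrays. They comprise 9 cysteine cathepsins of the papain family, legumain, 4 aspartic and serine peptidases, 12 glycosidases, 3 sulfatases, 6 lipid hydrolases and thioesterases, 2 activator proteins and 1 acid phosphatase, and 47 probes carry them. RNA from NIH3T3 cells, a mouse embryonic fibroblast line labelled wild type, was measured in confluent cultures left untreated (None), or given AR7 at 20 μM or BMS614 at 20 μM for 24 h, on 1 one-colour Agilent array for each condition. AR7 is a ligand of the retinoic acid receptor RARα that was developed as an activator of chaperone-mediated autophagy (CMA), the uptake of single cytosolic proteins through the lysosomal membrane, and BMS614 is a selective RARα antagonist. Both compounds were dissolved in DMSO. The paper describes the untreated cells as cultured without additions, and whether this also means without DMSO is not given in the sources used here. Because each condition is a single array, the differences have no replicate behind them and no p-value is given.

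Lysosomal hydrolases are made in the endoplasmic reticulum, tagged with mannose 6-phosphate in the Golgi and carried to the acidic lysosome, where many are cut into their active form. Cathepsins and legumain break down proteins, glycosidases and sulfatases take glycans apart, and lipid hydrolases act with saposins on membrane lipids. Loss of single members causes lysosomal storage diseases, and many of their genes share a motif built on CACGTG (the CLEAR element) that is bound by the transcription factor TFEB.

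Ctsa, which encodes cathepsin A, a serine carboxypeptidase and a component of the CMA network because it cuts LAMP2A at the lysosomal membrane, is shown first with Ctsd and Ctsf. All 3 carry the core motif in the promoter window of RefSeq (GRCm38.p6, 250 bases before to 50 after the start of transcription), and their printed stretches show where it lies. Capitals mark CACGTG, or its palindromic extension TCACGTGA where the window holds it.
Ctsa: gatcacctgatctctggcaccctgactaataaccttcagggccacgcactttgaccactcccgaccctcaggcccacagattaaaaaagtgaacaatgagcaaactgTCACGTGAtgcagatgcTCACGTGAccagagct
Ctsd: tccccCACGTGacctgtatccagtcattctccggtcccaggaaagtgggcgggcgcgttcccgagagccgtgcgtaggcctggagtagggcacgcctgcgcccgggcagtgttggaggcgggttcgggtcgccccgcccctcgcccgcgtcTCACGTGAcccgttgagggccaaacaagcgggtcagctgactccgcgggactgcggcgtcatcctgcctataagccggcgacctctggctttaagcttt
Ctsf: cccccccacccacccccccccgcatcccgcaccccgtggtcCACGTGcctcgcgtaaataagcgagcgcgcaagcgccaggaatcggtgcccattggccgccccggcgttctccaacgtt

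The Ctsa stretch lies at chr2:164833653-164833792 on the plus strand, runs from 120 bases before to 20 after the start, and holds TCACGTGA on both sides of the start. For Ctsd, the gene of the aspartic protease cathepsin D, the stretch covers chr7:142387828-142388077 on the minus strand and is the whole 250 bases before the start. That of Ctsf (cathepsin F) is chr19:4855045-4855164 on the plus strand, the 120 bases before the start, with a single CACGTG. Both motifs read the same on either strand, and each TCACGTGA contains a CACGTG. RefSeq promoters were matched to 35 of the 38 members, all but Ctsb, Ctsh and Asah1, and 10 of the 35 (28.6%) had CACGTG in a window, against 8.09% of 27025 genes with a promoter of the same length. These were Arsa, Ctsa, Ctsd, Ctsf, Ctsl, Gaa, Gla, Glb1, Lgmn and Naglu. TCACGTGA was found in Ctsa, Ctsd and Gla, which are 8.57% of the 35, against 1.12% of genes. A match describes these letters and is no evidence of binding.

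Signal was taken as the median spot intensity after background correction by the Robust Multiarray Average (RMA) method and quantile normalization over the 3 arrays, on the log2 scale, and a gene with several probes is represented by its brightest. The 75th percentile of the uncorrected intensity was 692 without treatment, 780.5 with AR7 and 909 with BMS614, and 55.4% to 61.8% of 55681 probes were well above background. Of the 38 members, 35 were well above background on all 3 arrays. Ctsc, the dipeptidyl peptidase that activates serine proteases of immune cells, and Gm2a, the activator of ganglioside breakdown by hexosaminidase A, stayed below that mark on each of the 3 arrays. Cathepsin S (Ctss, typical of antigen-presenting cells) had a log2 signal of 4.94 with AR7, 4.72 without treatment and 4.55 with BMS614. It was well above background with AR7 alone, and as measured it had 1.17-fold the signal without treatment and 1.31-fold that with BMS614. These ratios set a dim array at its own measured value and are not lower limits. The differences behind them, 0.23 and 0.39 in log2, are within 2 of the SD of repeated spots (0.43 and 0.39), the technical error used throughout. Of 11 fibroblast markers, 11 were well above background on all arrays, as were 13805 of the 20660 named genes, so this mark does not tell cell types apart. Col1a1, Pdgfrb and Vim were among them, and so was the dim Col3a1, at 5.57 without treatment, 5.23 with AR7 and 5.28 with BMS614. Of 10 macrophage markers, 7 were also well above background on all 3 arrays, while Fcgr1 and Tyrobp were so on none and Ptprc, which encodes the leukocyte marker CD45, was so on some of them.

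Differences between the arrays were small for most of the enzymes. The median log2 difference over the 35 measured members was 0.05 for AR7 against untreated, -0.01 for BMS614 against untreated and 0.00 for AR7 against BMS614, and the medians over all 30290 probes well above background were -0.01, -0.01 and 0.00. The median for AR7 against untreated was 0.0029 with the processed signal, 0.0093 in the deposited table and 0.0241 with all probes of a gene averaged. A difference of at least 1.2-fold (0.263 in log2) was found for 3 of 35 members with AR7 and 1 of 35 with BMS614 against untreated, and for 4 of 35 between the compounds. Among all probes well above background the shares past 1.2-fold were 18.5%, 21.7% and 17.7%, and over the brightest probe of each of 13805 named genes, which is how the members were counted, they were 12.1%, 14.3% and 12.0%. The members had 8.57%, 2.86% and 11.4%. The 5 members concerned, Ctsf, Ctsh, Ctsk, Ctso and Manba, all had a mean log2 signal under 8. By brightest probe, none of the 29 brighter members reached 1.2-fold in any of the 3 comparisons. The widest difference among them was 1.19-fold (Ppt1 with AR7 against untreated). Of 10069 named genes of such signal, 3.22%, 5.11% and 4.37% reached it. Dimmer probes of Ctsd and Gaa passed it for BMS614 against untreated (-0.32 ± 0.07 and -0.37 ± 0.12, SD of repeated spots). They also passed it between the compounds (0.29 ± 0.06 and 0.28 ± 0.12). With the processed signal Gla (-0.34) and Idua (-0.32) passed it for BMS614 against untreated. The split at a log2 signal of 8 was chosen after the values were seen.

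The error given with each difference is the SD between repeated spots of probes printed 10 times on each array, taken at the same signal. It covers spotting and scanning only, since culture, labelling and hybridization are not repeated. A difference past 2 of these SD was found for 9 of 35 members with AR7 against untreated (6 higher and 3 lower), against a share of 17.5% of all probes well above background. With the processed signal it was 8 of 35 members (22.9%) against 23.1% of probes. With BMS614 against untreated it was 7 of 35 members (4 higher, 3 lower) against 25.5% of probes, but 16 of 35 against 30.1% with the processed signal. Between the compounds it was 19 of 35 members, 13 higher with AR7 and 6 higher with BMS614, against 25.0% of probes. Over the brightest probes of 13805 named genes, 9.34% were higher and 9.16% lower past 2 SD with AR7 against untreated, 13.3% higher and 12.8% lower with BMS614 against untreated, and 14.3% higher and 14.0% lower with AR7 than with BMS614. The members' shares were 25.7%, 20.0% and 54.3%, and in either direction 18.5%, 26.1% and 28.3% of those named genes were past 2 SD. At a log2 signal of 8 or more, 27.6% of 29 members were past 2 SD with AR7 against untreated and 21.0% of named genes, 24.1% and 29.5% with BMS614 against untreated, and 62.1% and 34.9% between the compounds.

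**Figure D1:**
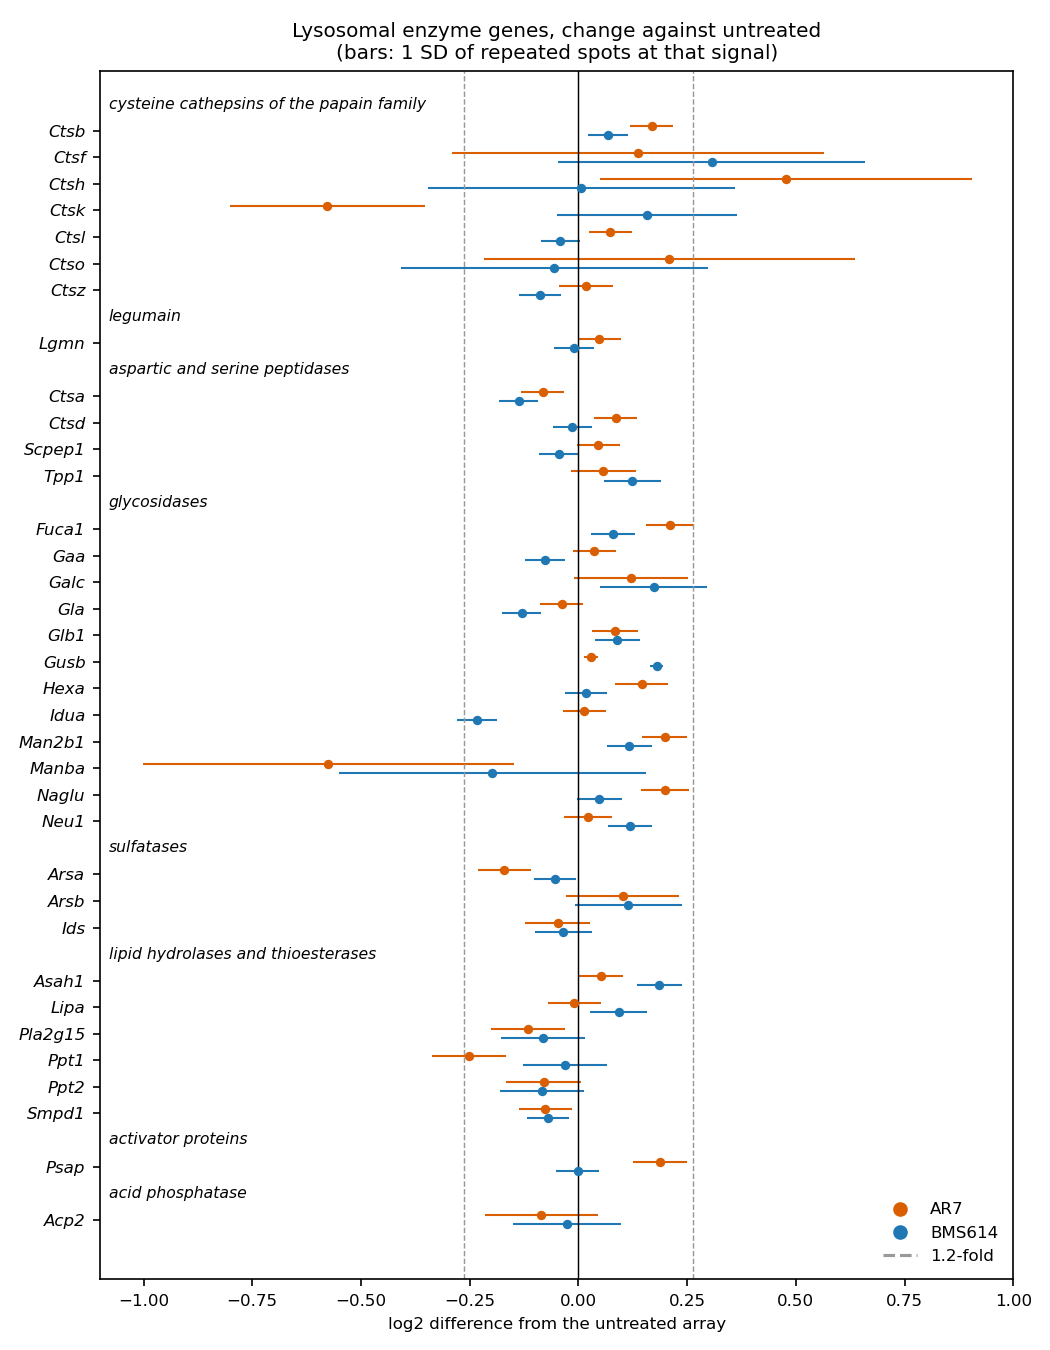
Log2 difference from the untreated array for the 35 members well above background on all arrays, by enzyme class, with AR7 in orange and BMS614 in blue. Bars are 1 SD of repeated spots at that signal and dashed lines mark 1.2-fold; the wide bars belong to dim genes such as Ctsh and Manba.

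**Figure D2:**
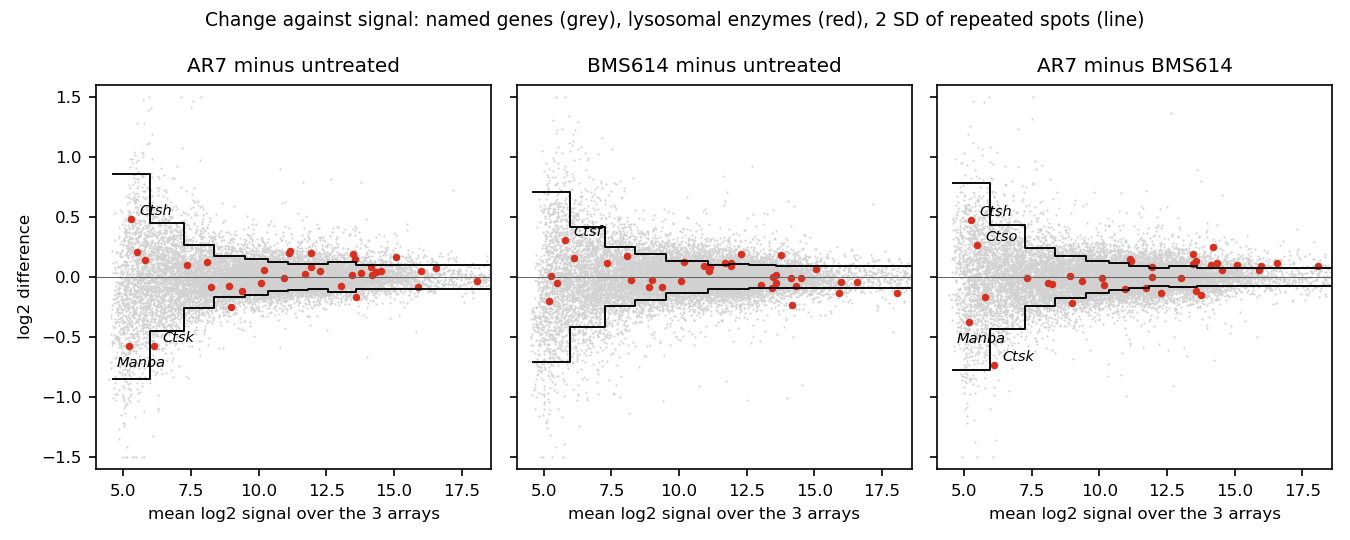
Log2 difference (vertical axis) against mean log2 signal (horizontal axis) for the brightest probe of 13805 named genes (grey, drawn at 1.5 where the difference is larger) and the members (red), with 2 SD of repeated spots as a black line. Members past 1.2-fold are named and lie at the dim end of each panel.

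Among the measured cysteine cathepsins, Ctsk had the widest difference in 2 of the 3 comparisons. This gene encodes cathepsin K, the collagenase of osteoclasts. Its log2 signal was 6.26 without treatment, 5.68 with AR7 and 6.42 with BMS614, so that the AR7 array was low and the other two lay close together. With AR7 it was 0.670 of the untreated level (log2 difference -0.58 ± 0.22, SD of repeated spots) and 0.601 of the BMS614 level (-0.74 ± 0.22). By brightest probe, Ctsk was the 1 member of 35 that passed both 1.2-fold and 2 SD, though dimmer probes of Ctsd and Gaa did so too. Ctsk lost the first of these against untreated under 3 alternatives. There the difference from untreated was -0.23 with the scanner's own processed signal, where it was also within 2 SD, -0.24 with normexp background correction and -0.23 in the deposited table, and that between the compounds was -0.37, -0.29 and -0.28.

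Ctsh encodes cathepsin H, an aminopeptidase. Its log2 signal was 5.10 without treatment, 5.58 with AR7 and 5.11 with BMS614, which placed AR7 above the other two by 0.48 ± 0.43 and 0.47 ± 0.39. Ctsf had 5.64, 5.78 and 5.95 in the same order of arrays, and its widest difference was 0.31 ± 0.35 with BMS614 against untreated. Ctso, a ubiquitous papain-like protease, had 5.43, 5.64 and 5.38, with 0.26 ± 0.39 between AR7 and BMS614. For these 3 genes the differences were all within 2 SD of repeated spots.

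The bright cathepsins of the class varied far less. Ctsb (cathepsin B, an endopeptidase and carboxypeptidase) had a log2 signal of 15.00 without treatment, 15.17 with AR7 and 15.07 with BMS614. The AR7 array was the highest, by 0.17 ± 0.05 over untreated, or 1.12-fold, and by 0.10 ± 0.04 over BMS614. With the processed signal the difference from untreated was 0.09 and both were within 2 SD, and in the deposited table that between the compounds was 0.05. Ctsl, which encodes the endopeptidase cathepsin L, had 16.56, 16.63 and 16.51, and Ctsz, a carboxypeptidase, had 13.47, 13.49 and 13.38. Both were higher with AR7 than with BMS614 past 2 SD, by 0.11 ± 0.04 for Ctsl and 0.11 ± 0.04 for Ctsz, while neither differed from untreated past 2 SD with either compound. For Ctsl the difference of BMS614 from untreated, -0.04 ± 0.05, was -0.10 with the processed signal and -0.09 in the deposited table. Over the 7 measured cysteine cathepsins the median difference was 0.14 with AR7 against untreated (0.03 to 0.15 under the other settings), 0.01 with BMS614 against untreated (0.01 to 0.08) and 0.11 between the compounds (0.07 to 0.11). Legumain (Lgmn), the asparaginyl endopeptidase that processes several cathepsins, had 14.50, 14.55 and 14.49, all within 2 SD of each other.

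Among the aspartic and serine peptidases, Ctsa had a log2 signal of 15.97 without treatment, 15.89 with AR7 and 15.83 with BMS614. With BMS614 it was 0.909 of the untreated level (-0.14 ± 0.05), and its difference with AR7, -0.08 ± 0.05, was within 2 SD. A second, dim Ctsa probe gave 0.18 ± 0.43 with AR7 and -0.03 ± 0.35 with BMS614. With both probes averaged, the Ctsa difference was 0.05 for AR7, so that its direction depends on the probe, and -0.08 for BMS614, within 2 SD. Ctsd had 14.12, 14.20 and 14.10, and it was higher with AR7 than with BMS614 by 0.10 ± 0.04, a difference that was within 2 SD with the processed signal (0.07). The second Ctsd probe gave a wider value for BMS614 against untreated, -0.32 ± 0.07, where the brighter one gave -0.01 ± 0.05, and 0.29 ± 0.06 for AR7 against BMS614. The 2 probes thus share the direction between the compounds but not its size. Scpep1, a serine carboxypeptidase, had 15.98, 16.03 and 15.94, with 0.09 ± 0.04 between AR7 and BMS614. Tpp1, the tripeptidyl peptidase lost in a form of neuronal ceroid lipofuscinosis, had 10.13, 10.18 and 10.25 and stayed within 2 SD in each comparison.

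Glycosidases accounted for 4 of the 9 members past 2 SD with AR7 against untreated, and all 4 were higher. That was 33.3% of the 12, against 25.7% of all members and 18.5% of named genes (21.0% at a log2 signal of 8 or more). Of the 12, 10 were above 0, against 23 of all 35 members and 6614 of 13805 named genes. Between 7 and 10 were so under the other settings tried, and the class median was 0.06. Fuca1, the lysosomal fucosidase, had a log2 signal of 11.06 without treatment, 11.28 with AR7 and 11.14 with BMS614, a difference for AR7 of 0.21 ± 0.06. Naglu, which cuts heparan sulfate, had 11.04, 11.24 and 11.08 (0.20 ± 0.06), and Man2b1, the acid alpha-mannosidase, had 11.83, 12.02 and 11.94 (0.20 ± 0.05). In Hexa, the alpha subunit of hexosaminidase A, the signals were 13.51, 13.66 and 13.53 (0.15 ± 0.06, and 0.10, within 2 SD, with the processed signal). The AR7 array was the highest for each of these 4 genes, and the differences from untreated were between 1.11-fold and 1.16-fold. Man2b1 was also past 2 SD with BMS614, at 0.12 ± 0.05.

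With BMS614, 3 glycosidases were higher and 2 lower than without treatment past 2 SD. That was 41.7% of the 12, against 20.0% of all members and 26.1% of named genes (29.5% at a log2 signal of 8 or more). Gusb, which encodes beta-glucuronidase and is often used as a reference gene, was printed 10 times on each array and so has the smallest technical error of the members. Its mean log2 signal was 13.69 without treatment, 13.72 with AR7 and 13.87 with BMS614. Between the same positions, all 10 spots were higher with BMS614 than without treatment, by 0.13 to 0.27, and all 10 were lower with AR7 than with BMS614, at -0.19 to -0.11. For AR7 against untreated 7 of 10 spots were above 0, with a mean difference of 0.03 ± 0.02. Repeated spots of 1 array share its RNA and are not replicates of the treatment. Neu1, the lysosomal sialidase that forms a complex with cathepsin A, had 11.66, 11.68 and 11.78, with 0.12 ± 0.05 for BMS614 against untreated.

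Idua and Gla were the glycosidases that were lower with BMS614. Idua, the iduronidase of heparan and dermatan sulfate breakdown, had a log2 signal of 14.26 without treatment, 14.28 with AR7 and 14.03 with BMS614. The BMS614 array stood apart at 0.851 of the untreated level (-0.23 ± 0.05), and the difference between AR7 and BMS614 was 0.25 ± 0.04. A second Idua probe did not show this, with 8.59, 8.60 and 8.62 in the same order, and with both averaged the difference for BMS614 was -0.10, within 2 SD. Gla, the alpha-galactosidase A lost in Fabry disease, had 18.12, 18.08 and 17.99, with -0.13 ± 0.05 for BMS614 against untreated. This difference reached -0.34 with the processed signal and was over 1.5 times wider under 4 of the 6 alternatives. The mean signal of the Gla probe, 18.06, was at the level of Actb (18.05) and Rpl9 (18.05), and its specificity was not tested. Gaa, the acid alpha-glucosidase lost in Pompe disease, had 14.35, 14.39 and 14.28, and its dimmer probe gave -0.37 ± 0.12 for BMS614 against untreated where the brighter one gave -0.08 ± 0.05. Manba, the beta-mannosidase, was the dim member of the class, with 5.46, 4.88 and 5.26. It was lowest with AR7, at 0.671 of untreated, but this difference of -0.58 ± 0.43 was within 2 SD. Galc and Glb1, which take galactose off glycolipids, differed by at most 0.17 in any comparison and within 2 SD.

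**Figure D3:**
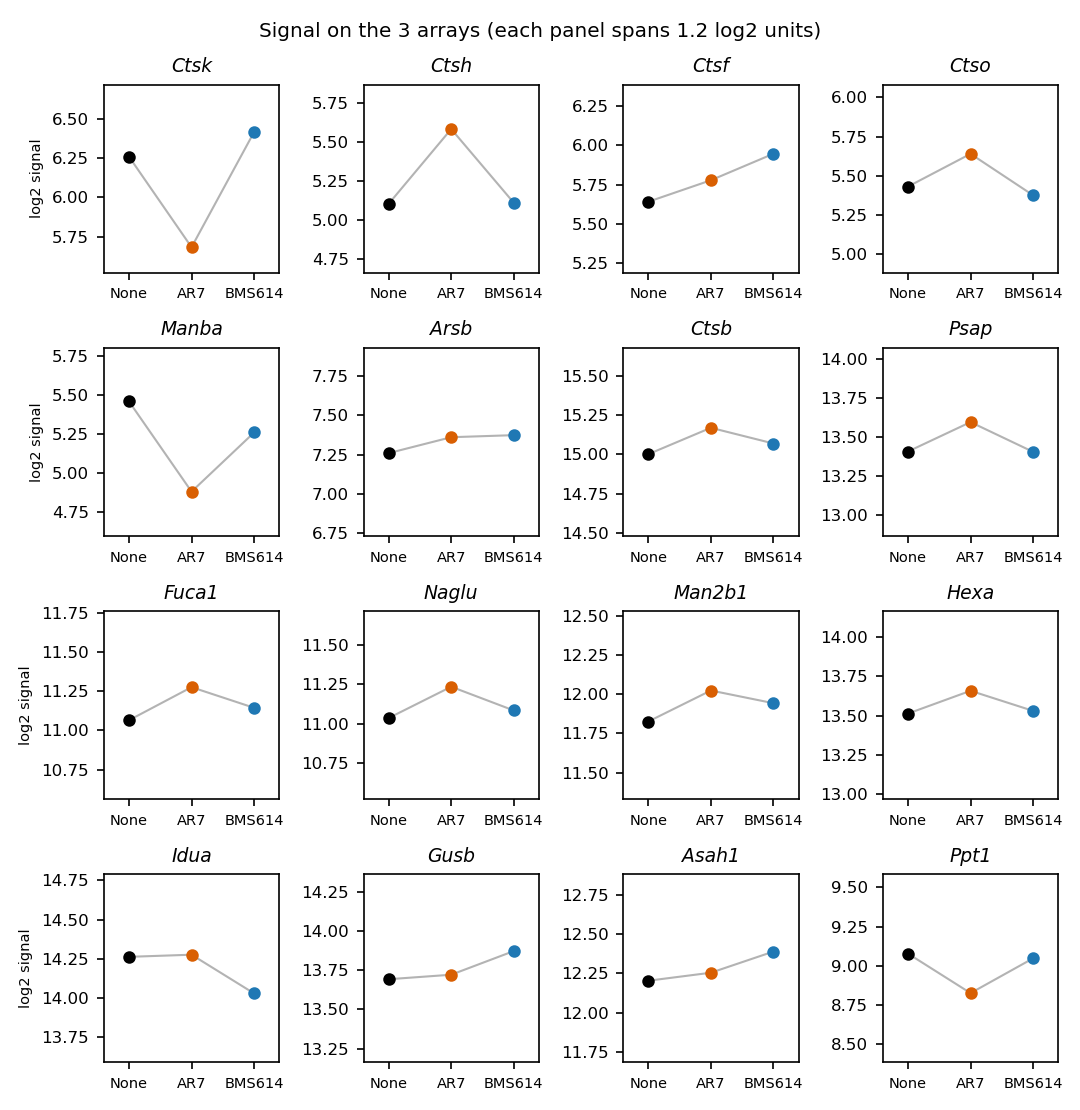
Log2 signal of 16 members on the untreated (None, black), AR7 (orange) and BMS614 (blue) arrays, 1 array each and without error bars; each panel spans 1.2 log2 units around the gene's mean. Ctsk is lowest on the AR7 array, Fuca1, Naglu, Man2b1 and Hexa are highest on it, and Idua is lowest on the BMS614 array.

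With AR7 against untreated the median of the 3 sulfatases was -0.05. Arsa (arylsulfatase A, which desulfates sulfatide) had a log2 signal of 13.66 without treatment, 13.49 with AR7 and 13.60 with BMS614, so that AR7 gave 0.889 of the untreated level (-0.17 ± 0.06) and was lower than BMS614 too (-0.12 ± 0.04). With the processed signal these were -0.11 and -0.08, the latter within 2 SD. Arsb and Ids, which act on dermatan sulfate, were within 2 SD in each comparison, and the 2 Arsb probes gave 0.10 ± 0.13 and -0.13 ± 0.22 for AR7 against untreated. Ppt1, the palmitoyl-protein thioesterase lost in infantile neuronal ceroid lipofuscinosis, had 9.08, 8.83 and 9.05. The AR7 array was the low one, at 0.840 of untreated (-0.25 ± 0.09). Of the 6 lipid hydrolases and thioesterases, 5 were below 0 with AR7 against untreated, against 12 of all 35 members and 7127 of 13805 named genes. Between 4 and 6 of the 6 were so under the other settings tried. The class median was -0.08. The class also had a median of -0.05 with BMS614 against untreated and of -0.07 between the compounds. Ppt1 was the only one of the 6 past 2 SD with AR7.

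Asah1 was the member of the class past 2 SD with BMS614. It encodes acid ceramidase, and its log2 signal was 12.20 without treatment, 12.25 with AR7 and 12.39 with BMS614. The BMS614 array was the highest, by 0.19 ± 0.05 over untreated and by 0.13 ± 0.04 over AR7. Its second probe gave the same difference between the compounds, -0.13 ± 0.07 for AR7 against BMS614, and 0.05 ± 0.07 for BMS614 against untreated. Averaged over both probes the latter was 0.12. Lipa (acid lipase), Pla2g15 (lysosomal phospholipase A2), Ppt2 and Smpd1 (acid sphingomyelinase) were within 2 SD in each comparison, with differences from -0.12 to 0.09.

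Psap, which encodes the precursor of the saposins that present lipids to these hydrolases, had a log2 signal of 13.41 without treatment, 13.60 with AR7 and 13.41 with BMS614. It was higher with AR7 by 0.19 ± 0.06 over untreated and by 0.19 ± 0.04 over BMS614, while the untreated and BMS614 arrays were level. Acp2, the lysosomal acid phosphatase, had 8.28, 8.19 and 8.25 and was within 2 SD throughout. By signal rather than class, the 15 members with a log2 signal of 13 or more included 10 that were higher with AR7 than with BMS614 past 2 SD and 2, Gusb and Arsa, that were lower. Of 2294 named genes as bright, 510 were higher and 403 lower. The median difference was 0.10 for these 15 members and 0.01 for the 2294 genes, and this signal limit too was chosen after the values were seen.

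**Figure D4:**
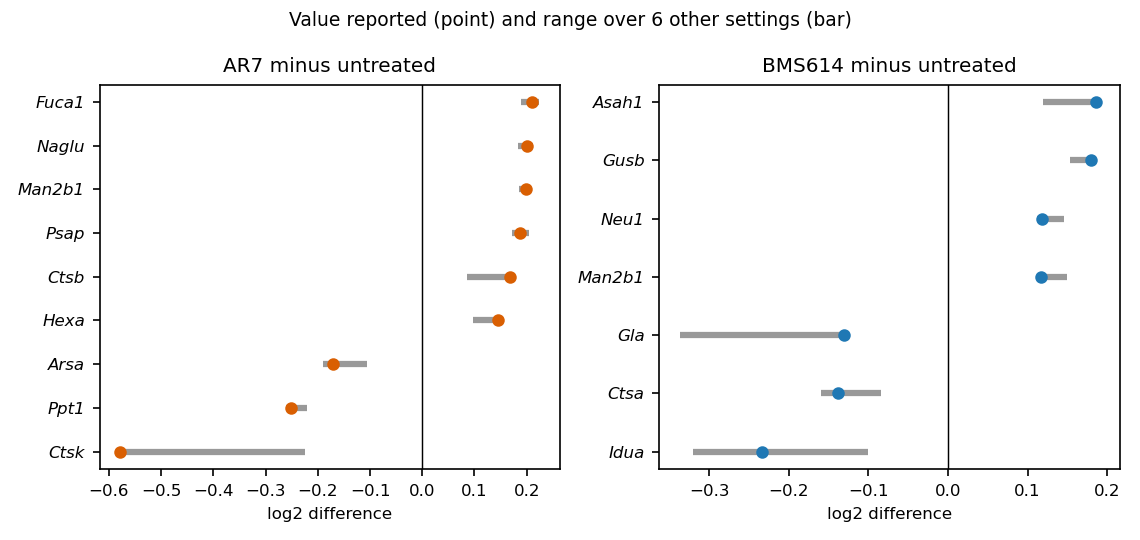
Log2 difference from untreated of the members past 2 SD, with the value reported as a point and the range over 6 other processing settings as a grey bar. No bar crosses 0, and those of Ctsk, Gla and Idua are the longest.

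Probes of the same gene gave a second view of the technical spread. Of 7 members with 2 probes well above background on all arrays, 6 had probes of opposite sign for AR7 against untreated, and none of the 7 pairs differed past 2 SD. For BMS614 against untreated 2 of 7 pairs had opposite signs and 3 differed past 2 SD, those of Ctsd, Gaa and Idua. Between the compounds 2 of 7 had opposite signs and 2, Ctsd and Idua, differed past 2 SD. The members with CACGTG in their promoter window had a median difference of 0.06 with AR7 against untreated over 10 genes, and the 22 measured members whose windows lacked it had 0.02. With BMS614 the medians were -0.03 and -0.01, and between the compounds 0.08 and -0.01. For TCACGTGA, held by 3 measured members and lacking in 29, the medians with AR7 against untreated were -0.04 and 0.04. With BMS614 they were -0.13 and -0.01, and between the compounds 0.09 and -0.01.

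The other genes of the pathway were described from lists on the same 3 arrays. Of 24 other enzymes and cofactors of the lysosomal lumen 23 were measured on all arrays. With AR7 against untreated 3 were higher and 2 lower past 2 SD (21.7%, against 18.5% of named genes), with a median difference of 0.06. With BMS614 against untreated 4 were higher and 4 lower (34.8%, against 26.1%), with a median of 0.00. Between the compounds 6 were higher with AR7 and 3 lower (39.1%, against 28.3%). Grn, which encodes progranulin, had a log2 signal of 13.81 without treatment, 14.07 with AR7 and 13.90 with BMS614 (0.27 ± 0.05 for AR7). Acp5, the tartrate-resistant acid phosphatase of osteoclasts, had 6.81, 6.27 and 6.58, a difference for AR7 against untreated of -0.54 ± 0.22. A dimmer Acp5 probe had 5.97, 5.60 and 5.60 and was within 2 SD of untreated with AR7. Galns, a sulfatase of keratan sulfate, was lower with BMS614 than without treatment (-0.28 ± 0.05), and Creg1, a secreted lysosomal glycoprotein, was higher with AR7 than with BMS614 (0.29 ± 0.04). The dimmer Creg1 probes gave 0.10 ± 0.04 and, within 2 SD, 0.17 ± 0.09. Ctse and Ctsw, which encode the remaining cathepsins listed, had log2 signals under 8, and their widest differences were 0.59 ± 0.39 and -0.54 ± 0.22 for AR7 against BMS614.

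Of the genes for mannose 6-phosphate tagging and delivery, 9 of 10 were measured on all arrays. With AR7 against untreated 2 were higher past 2 SD and none lower (22.2%, against 18.5% of named genes). These were Igf2r and Gnptab. With BMS614 against untreated 2 were higher and none lower (22.2%, against 26.1%). Igf2r, the large mannose 6-phosphate receptor, was printed 10 times and had 10.26 without treatment, 10.50 with AR7 and 10.49 with BMS614, that is 0.24 ± 0.02 for each compound. Gnptab, which encodes the enzyme that starts the tag, had 11.44, 11.63 and 11.55 in that order. Among 5 measured cystatin genes, the inhibitors of cysteine cathepsins, none differed past 2 SD in any comparison. Cst6 had the widest value, with 6.16, 5.32 and 5.93, or -0.84 ± 0.43 for AR7 against untreated.

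All 12 genes around TFEB were measured. With AR7 against untreated 2 were higher past 2 SD, Fnip2 (0.22 ± 0.06) and Lamtor1 (0.11 ± 0.05), and none lower. That was 16.7%, against 18.5% of named genes. With BMS614 Lamtor1 was higher (0.11 ± 0.05), and Flcn (-0.15 ± 0.05), the folliculin gene, and Mitf (-0.17 ± 0.05) were lower. That was 25.0%, against 26.1% of named genes. A second probe gave -0.05 ± 0.05 for Flcn and -0.21 ± 0.07 for Mitf. Only the dimmer probe was past 2 SD for Tfe3 with AR7 (0.15 ± 0.06) and for Rragc with BMS614 (-0.24 ± 0.10). Tfeb had a dim log2 signal of 5.08 without treatment, 5.10 with AR7 and 4.78 with BMS614, within 2 SD in each comparison. Of the 3 genes of lysosomal membrane glycoproteins, Lamp2 had 13.15, 13.38 and 13.31 and was past 2 SD with both compounds. Its second probe, with 10.55, 10.58 and 10.64, was within 2 SD in each comparison. Lamp1 and Cd63 were within 2 SD against untreated. The fibroblast markers were lower with AR7 than with BMS614 in 11 of 11 genes, with a median of -0.08, and in 8 of 11 under 4 of the other scalings. Against untreated they went both ways with AR7, 5 above 0 and 6 below, with 1 higher past 2 SD and 4 lower (45.5%, against 18.5% of named genes). Fn1 (fibronectin) was the higher one at 0.13 ± 0.05, Lum, which encodes the matrix proteoglycan lumican, was lower at -0.28 ± 0.06, and Col3a1 gave -0.34 ± 0.43. With BMS614 against untreated 3 were higher past 2 SD and 2 lower (45.5%, against 26.1%). Their median of 0.09 was -0.07 to -0.05 under 4 of the other scalings. Of 7 measured macrophage markers, 2 were lower past 2 SD with BMS614 than without treatment and none higher (28.6%, against 26.1% of named genes). These were Itgam (-0.27 ± 0.05) and Csf1r (-0.19 ± 0.05). The Itgam probe had a log2 signal of 14.66 without treatment. Both dimmer Itgam probes, with 6.93 and 5.62, gave values above 0, 0.08 ± 0.21 and 0.29 ± 0.35, and Adgre1 gave 0.27 ± 0.35. A second bright Csf1r probe gave -0.24 ± 0.07, and Lyz2 was within 2 SD at -0.22 ± 0.12. Itgam (0.33 ± 0.04) and Csf1r (0.10 ± 0.05) were higher past 2 SD with AR7 than with BMS614. The log2 of the summed signal of the 10 macrophage markers was 14.89 without treatment, 14.93 with AR7 and 14.63 with BMS614, of which the bright Itgam probe made up 84.5% to 86.9%. That of the 38 members was 19.46, 19.47 and 19.38, and Gla, the brightest of them, alone had 18.12, 18.08 and 17.99. The part of the marker genes in the differences of the enzymes was not tested. In bulk RNA a change in the number of expressing cells and a change in RNA per cell cannot be told apart.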

How the data were processed

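Total RNA of 3 NIH3T3 cultures was hybridized as Cy3-labelled RNA to 1 one-colour Agilent array each, and all 3 arrays lie on 1 slide. Samples were grouped by the treatment in their labels. The authors deposited the scanner intensity of every spot, not normalized, together with 1 table of processed signals on a linear intensity scale that served as an alternative only. The scanner software was Feature Extraction 10.7.3.1, and the methods of the study name RMA with the oligo package.

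Values here were recomputed from the deposited median spot intensity with the RMA convolution background of each array, quantile normalization over the 3 arrays, log2 and averaging of the spots of each probe, without oligo. Controls and outlier-flagged spots were dropped. A probe counts as well above background if at least 50% of its spots are. RefSeq accessions matched to a gene table of GRCm38.p6 named 27235 of 55681 probes, and no gene coordinates are given apart from promoter windows. The brightest probe by mean log2 signal represents a gene.

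No test was possible between single arrays, and the number of arrays limits the precision. The SD of the log2 difference between repeated spots came from 267 probes printed 10 times, in 10 bins of signal, and was divided by the square root of a probe's number of spots. The counting was tested on simulated data. Values were printed for members past 1.2-fold, for Ctsa, Ctsb, Ctsd and Ctsl, for the 2 widest differences of each class and for members dim on some arrays, and for genes of other lists past 1.2-fold. Other genes past 2 SD were named after their values were seen. Members and lists were chosen with earlier results of these data known. The alternatives were 5 other scalings or sources, averaging all probes of a gene, 1.5-fold and 2-fold thresholds, and no filter on dim probes. Tools were limma 3.58.1 in R 4.3.3, and pandas 2.3.3, numpy 2.4.6 and matplotlib 3.10.9 in Python 3.11.15. Protein sequences were not used here.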

Additional observations from a re-analysis of the deposited data

How the results depend on the processing

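The 9, 7 and 19 members past 2 SD for AR7 against untreated, BMS614 against untreated and AR7 against BMS614 kept their direction under the 6 alternatives that recompute single genes, while 3, 2 and 4 of them were within 2 SD under at least 1 of the 5 that hold repeated spots. Those were Ctsb, Ctsk and Hexa, then Ctsa and Idua, then Ctsb, Ctsd, Man2b1 and Arsa. The median over the members for AR7 against untreated was 0.0029 with the processed signal, 0.0093 in the deposited table and 0.0241 with all probes averaged, against 0.0452. For BMS614 against untreated it was -0.0267 in the deposited table against -0.0102. Between the compounds it was 0.0317 with the processed signal, 0.0135 with 75th percentile scaling, 0.0188 with spike-in scaling, 0.0302 in the deposited table and 0.0292 without a filter on dim probes, against 0.0031. The counts past 1.2-fold did not hold. Against 3 for AR7 over untreated there were 0 with normexp background, 1 in the deposited table, and 0 at 1.5-fold and at 2-fold. Against 1 for BMS614 over untreated there were 3 with the processed signal, 3 with the RMA background and 75th percentile scaling, 3 with scaling on spike-in controls, 0 with normexp, and 0 at 1.5-fold and at 2-fold. Against 4 between the compounds there were 2 with the processed signal, 1 with normexp, 2 in the deposited table, 1 at 1.5-fold and 0 at 2-fold. The count past 2 SD for BMS614 against untreated was 16 in place of 7 with the processed signal. The higher fold limits lower the counts by construction, and the cause of the other changes was not tested. Of 324 values of single members under the alternatives, 34 moved by more than 1 SD of repeated spots. Over all members, 26, 31 and 32 of 35 kept their direction, and Lgmn, Idua and Asah1 were among those that did not for AR7 against untreated. Spike-in scaling shifted the median of all probes by 0.19 for AR7 and 0.34 for BMS614 against untreated, and the deposited table by -0.12 and -0.06, and changes under them are given relative to that shift. The count past 2 SD could not be had from the deposited table, which holds no repeated spots. No paired analysis was possible because there is a single array for every treatment. The low signal of Ctsf, Ctsh, Ctso and Manba, with an SD of repeated spots of 0.35 to 0.43, limits what their differences show.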
